A study of Caenorhabditis elegans with 2 samples.

Results

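The cytosolic ribosomal protein genes of Caenorhabditis elegans were examined for summits of LIM-7, which is a transcription factor of the LIM-homeodomain family. They were taken as the protein-coding genes of the Ensembl annotation of WBcel235 whose symbol starts with rpl-, rps- or rla- followed by a digit. This name rule, which uses no measured value, found 81 of the 19973 nuclear protein-coding genes. By symbol alone, 50 were counted as large subunit genes, the 3 rla- genes included, and 31 as small subunit genes (rps-). Whether each protein is part of the mature ribosome was not checked. The names were those of the annotation, and 3 further genes of the ribosome, ubl-1, ubq-2 and rack-1, lay outside the rule. LIM-7 on chromatin was mapped by ChIP-seq (immunoprecipitation of crosslinked chromatin followed by sequencing) in whole animals of strain OP779 at the L4 larval stage, aged 48.5 hours, which had been synchronised as starved L1 larvae after bleaching. The animals carried the integrated transgene wgIs779, which holds lim-7 fused to TY1, EGFP and 3xFLAG together with unc-119(+), in an unc-119 (tm4063) background, and the precipitation used an antibody to GFP. The measurement therefore follows the tagged copy. The 2 samples are biological replicates of this 1 group, so there is no comparison between conditions. Whole animals were used, so strong binding in few cells cannot be told apart from weak binding in many. A possible control experiment named by the labels was not analysed here, and read depth is unknown from these lists. Whether a summit reflects binding of LIM-7 itself was therefore not tested, and "occupied" below means only that a summit was found.

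Ribosomal proteins assemble with ribosomal RNA into the subunits that translate messenger RNA. The small subunit reads the message, the large subunit joins the amino acids, and the acidic rla proteins form the stalk on which translation factors act. Their genes are among the most strongly transcribed in growing larvae. Many worm messages are trans-spliced to a leader, so an annotated start can lie downstream of the point where transcription begins. LIM-homeodomain proteins bind DNA through a homeodomain, for which sites with TAAT are typical, and lim-7 is known for its expression in the gonadal sheath.

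The sequences under the strongest LIM-7 summits at these genes are shown first, since the shared letters described further on lie in them. Each is the 100 bp around a summit in WBcel235, which has the coordinates of ce11, written 5′ to 3′ on the strand of the ribosomal protein gene. The first 6 are the strongest among the chromosomes whose sequence is shown, and rps-23 was added, after its values were seen, because it holds the shared letters. Capitals mark the 8-mer TACGGTAA. The windows are chrIII:3867513-3867612 (plus strand) for rpl-3, chrIV:654861-654960 (minus) for rpl-15, chrIII:7854631-7854730 (plus) for rpl-35, chrIV:4750038-4750137 (minus) for rpl-20, chrIV:385502-385601 (plus) for rps-24, chrIV:1659230-1659329 (plus) for rps-28 and chrIV:12391259-12391358 (minus) for rps-23.
rpl-3: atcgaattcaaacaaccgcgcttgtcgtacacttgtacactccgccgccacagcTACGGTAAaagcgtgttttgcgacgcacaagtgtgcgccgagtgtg
rpl-15: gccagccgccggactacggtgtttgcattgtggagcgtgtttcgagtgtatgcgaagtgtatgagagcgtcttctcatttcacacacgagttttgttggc
rpl-35: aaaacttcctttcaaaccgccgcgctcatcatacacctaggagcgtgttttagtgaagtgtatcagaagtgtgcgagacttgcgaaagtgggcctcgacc
rpl-20: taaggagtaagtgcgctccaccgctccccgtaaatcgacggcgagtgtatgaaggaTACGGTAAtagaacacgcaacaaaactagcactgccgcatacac
rps-24: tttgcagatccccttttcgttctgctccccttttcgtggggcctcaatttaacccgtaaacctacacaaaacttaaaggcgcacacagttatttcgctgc
rps-28: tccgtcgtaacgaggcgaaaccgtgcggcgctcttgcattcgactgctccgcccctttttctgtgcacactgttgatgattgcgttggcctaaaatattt
rps-23: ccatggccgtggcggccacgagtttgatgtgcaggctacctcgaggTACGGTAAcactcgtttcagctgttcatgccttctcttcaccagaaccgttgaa

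A LIM-7 summit lay in the promoter of 31 of the 81 genes (38.3%, exact 95% interval 27.7 to 49.7), against 3.77% of all protein-coding genes. A gene was called occupied when the summit of a peak in the authors' list of both replicates, thresholded on the irreproducible discovery rate (IDR), fell in the window that reaches 1000 bp upstream and 200 bp downstream of 1 of its transcript starts. Intervals cover counting error only, and genes are not replicates of the experiment. The occupied large subunit genes were rpl-1, rpl-3, rpl-6, rpl-7, rpl-7A, rpl-10, rpl-12, rpl-13, rpl-14, rpl-15, rpl-20, rpl-21, rpl-23, rpl-24.2, rpl-27, rpl-35, rpl-36, rpl-38, rpl-39, rpl-41.2 and rpl-43. The occupied small subunit genes were rps-1, rps-12, rps-14, rps-18, rps-19, rps-23, rps-24, rps-26, rps-28 and rps-30. In the thresholded list of replicate 1 alone 13 of 81 genes were occupied (16.0%, against 1.77% of all genes), and in that of replicate 2 alone 14 (17.3%, against 1.85%). The conservative list held 30 (37.0%, against 3.43%). All these lists come from the same 2 samples, so they are not independent counts.

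Both subunits held summits. Of the large subunit genes, 21 of 50 were occupied (42.0%, exact 95% interval 28.2 to 56.8), and of the small subunit genes 10 of 31 (32.3%, 16.7 to 51.4). The odds ratio was 1.52 with a 95% interval of 0.543 to 4.40, and the difference did not pass Fisher's exact test (two-sided, p = 0.482). The interval holds differences in either direction. The test takes genes as separate, though rpl-36 and rps-14 were occupied through 1 shared summit, which counts for both subunits. With each summit given only to the gene of the nearest start, 17 large and 9 small subunit genes were occupied. The odds ratio was then 1.26 (Fisher's exact test, p = 0.807). In the list of replicate 1 alone the small subunit had the higher share, with 6 of 31 genes (19.4%) against 7 of 50 (14.0%), while in that of replicate 2 alone it had 4 of 31 (12.9%) against 10 of 50. None of the 3 rla genes had a promoter summit in the list of both replicates.

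**Figure D1:**
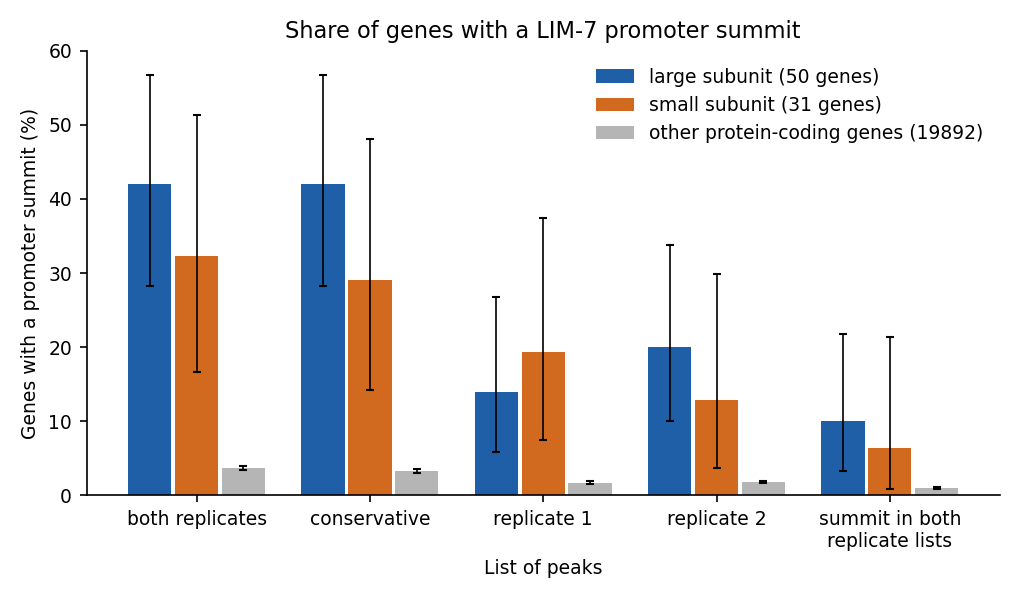
Percentage of large subunit, small subunit and other protein-coding genes with a LIM-7 promoter summit in each list of peaks; bars are shares and error bars exact 95% binomial intervals. In the list of both replicates the shares were 42.0% and 32.3% for the subunits and 3.62% for the other genes.

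The strongest summit belonged to rpl-3 (WBGene00004414, chromosome III, 3867854 to 3869587, plus strand), which encodes a protein at the core of the large subunit near the peptidyl transferase centre. Its peak, 3867487 to 3867657, had a signal value of 404 in the list of both replicates, where it ranked 24 of 1804. It had 211 in the list of replicate 1 (rank 15 of 883) and 204 in that of replicate 2 (rank 27 of 920). The signal value is the authors' own, has no stated scale and is compared only within a list. The summit lay 291 bp upstream of the gene, between protein-coding genes, and was the only 1 at these genes among the 100 strongest.

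Next came rpl-15, which encodes another core protein of the large subunit (WBGene00004427, chromosome IV, 653480 to 654576, minus strand). Its signal values were 255 in the list of both replicates, 133 in replicate 1 and 122 in replicate 2. The summit lay 335 bp upstream of rpl-15 and 479 bp upstream of the divergent gene K11H12.8. At rpl-35 (WBGene00004449, chromosome III, 7855134 to 7855646, plus strand), whose protein sits at the exit of the peptide tunnel, they were 223, 99.98 and 123, with the summit 453 bp upstream. At rpl-20 (WBGene00004432, chromosome IV, 4749123 to 4749778, minus strand) they were 196, 103 and 111, with the summit 310 bp upstream. All 3 peaks stood among the 400 strongest of the list, and each was in both replicate lists.

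Of the small subunit genes rps-24 stood highest (WBGene00004493, chromosome IV, 385887 to 386606, plus strand). Its signal values were 194 in the list of both replicates, 97.0 in replicate 1 and 115 in replicate 2, with the summit 335 bp upstream. It was followed by rps-26 (WBGene00004495, chromosome I, 14759930 to 14760626, plus strand), whose protein lies near the exit of the message from the small subunit, with 157, 87.4 and 71.4. The rps-26 summit lay 405 bp upstream, 52 bp upstream of the divergent gene tmem-107, and within 500 bp of the snoRNA gene F39B2.14. At rpl-7 (WBGene00004418, chromosome I, 111038 to 112417, plus strand) the values were 138, 83.9 and 54.9. Unlike the 6 genes above, its strongest summit lay inside the gene, 144 bp after the start in coding sequence, and within 500 bp of the start of F53G12.12, a snoRNA gene inside rpl-7.

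These 7 genes were the ones whose summit in the list of both replicates overlapped, by at least 1 bp, a peak in each replicate list. They make 8.64% of the 81, against 1.05% of all genes. As a share of occupied genes, the 7 of 31 (22.6%) were close to the 203 of 721 (28.2%) of the other occupied genes, a difference that was not tested. The summits of the replicate lists lay at most 28 bp from those of the list of both.

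**Figure D2:**
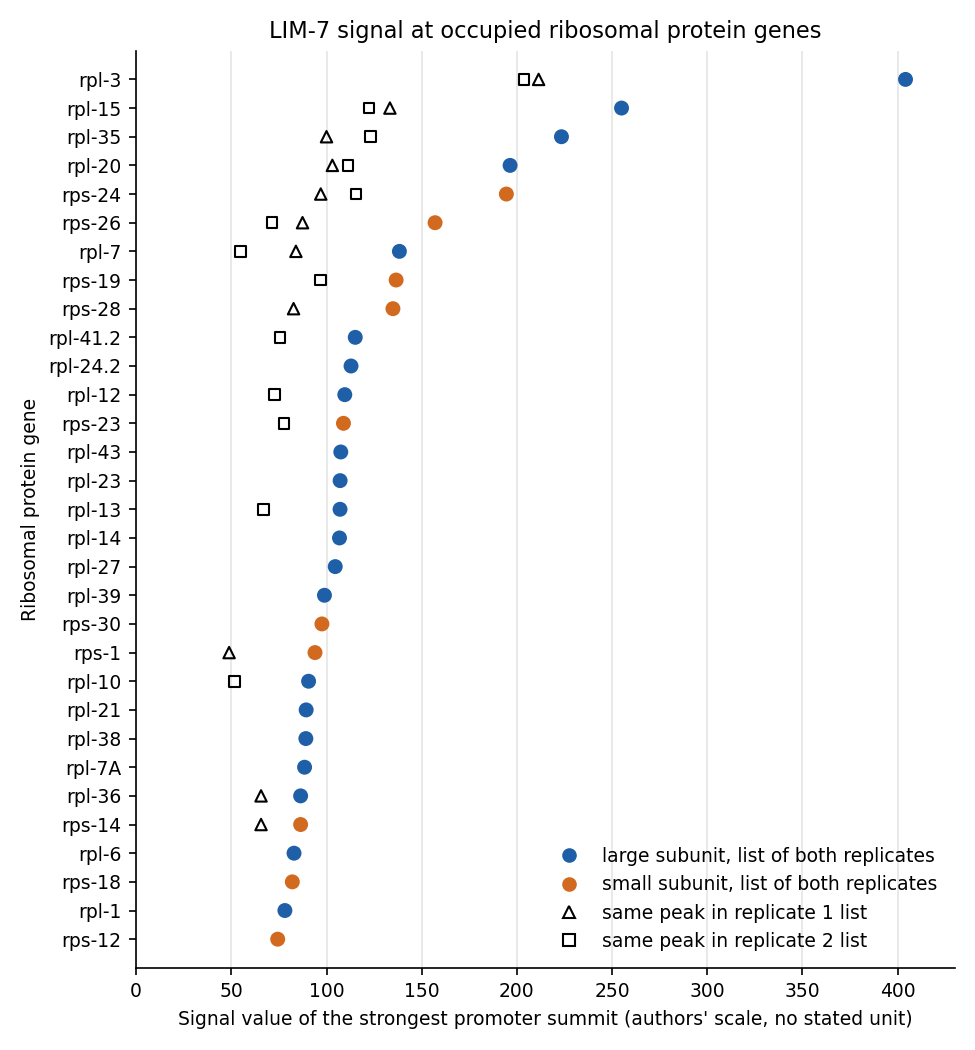
Signal value of the strongest promoter summit of the 31 occupied ribosomal protein genes in the list of both replicates (filled circles), with the overlapping peak in the list of replicate 1 (triangles) and replicate 2 (squares) where there is one. Values of different lists are not on one scale; rpl-3 is highest in each, and 7 genes have both open symbols.

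The next members by signal were each in 1 replicate list or in none. At rps-19 the summit, 286 bp upstream, had 137 in the list of both replicates and 96.9 in replicate 2. In replicate 1 the overlapping candidate had 49.4 and an IDR of 0.793, far above the threshold of 0.01. At rps-28, 411 bp upstream, the signal was 135 and in replicate 1 it was 82.7. The replicate 2 candidate there had 57.0 and an IDR of 0.0148, just outside the threshold. At rpl-41.2, the gene of a very short protein that has a near copy, rpl-41.1, the summit lay 272 bp upstream with 115, and in replicate 2 with 75.6. The replicate 1 candidate had 40.3 and an IDR of 0.670. Reads that match both rpl-41 genes could have been placed at either 1, and rpl-41.1 had no thresholded summit.

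At rpl-24.2 the summit had 113 and lay 140 bp upstream, in an intron of C03D6.1. Neither replicate list held it, and its candidates had an IDR of 0.0172 in replicate 1 and 0.655 in replicate 2. At rpl-12, whose protein lies at the base of the stalk, the signal was 109.6 and in replicate 2 it was 72.7. No replicate 1 candidate overlapped it. That summit was counted because it lay 464 bp upstream of an inner transcript start, and it lay 307 bp inside the gene from its first start, in coding sequence of rpl-12. At rps-23, whose protein reaches the decoding centre, the summit lay 256 bp upstream with 108.9, and with 77.7 in replicate 2. The replicate 1 candidate had 46.0 and an IDR of 0.0506. The remaining occupied genes had signal values from 74.3 at rps-12 to 107.5 at rpl-43.

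Of the 31 occupied genes, 17 had a summit that overlapped a peak of at least 1 replicate list, and 14 had none. The 14 were rpl-1, rpl-6, rpl-7A, rpl-14, rpl-21, rpl-23, rpl-24.2, rpl-27, rpl-38, rpl-39, rpl-43, rps-12, rps-18 and rps-30. The median of the strongest signal was 107 over the 31 members, 107 over the large and 103 over the small subunit genes, and 105 over the 721 other occupied genes. These medians were close to each other and were not tested. Of the 1804 summits of the list, 37 were summits of these genes, with 5 among the strongest 400 and 18 among the strongest 902.

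By position the member summits fell into upstream ones between genes and ones over genes. The 31 genes held 38 pairs of gene and summit from 37 summits, since rpl-36 and rps-14 shared 1. Of the 38, 17 lay upstream and between protein-coding genes, at 17 different genes (rpl-3, rpl-7, rpl-7A, rpl-14, rpl-15, rpl-20, rpl-23, rpl-35, rpl-41.2, rpl-43, rps-1, rps-12, rps-19, rps-23, rps-24, rps-26 and rps-28). Their median distance was 310 bp upstream of the start, from 81 to 728 bp. Their median signal was 115, and 12 of the 17 overlapped a peak of at least 1 replicate list, 6 of them of both. The other 21 pairs had a median signal of 89.3, 9 overlapped a replicate peak, and 1, at rpl-7, overlapped both. All 6 member peaks narrower than 264 bp, the width of 1404 of the 1804 peaks, were of the upstream kind. They were also the 6 strongest, those of rpl-3, rpl-15, rpl-35, rpl-20, rps-24 and rps-26, so width was not separated from signal here. Of the 632 other promoter summits 111 were narrower than 264 bp, against 6 of the 37 member summits.

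The other pairs lay mostly over genes. A total of 14 pairs lay at or after the nearest transcript start, from 24 bp at rpl-1 to 183 bp at rps-12, with 12 in coding sequence and 2 in introns. As distinct summits these were 14 of 37 (37.8%), against 108 of the 632 other promoter summits (17.1%). The 2 sets were measured differently, member summits from the nearest start of a member and the others from the nearest start of any gene. Coding sequence held 16 of the 37 (43.2%), against 110 of 632 (17.4%). These differences were not tested. The ribosomal protein genes were short, with a median length of 754 bp against 2027 bp over all protein-coding genes. The part of gene length in these shares was not tested. At rpl-1 and rpl-12 inner starts decided the distance, and from the first start the rpl-1 summit lay 386 bp inside the gene.

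**Figure D3:**
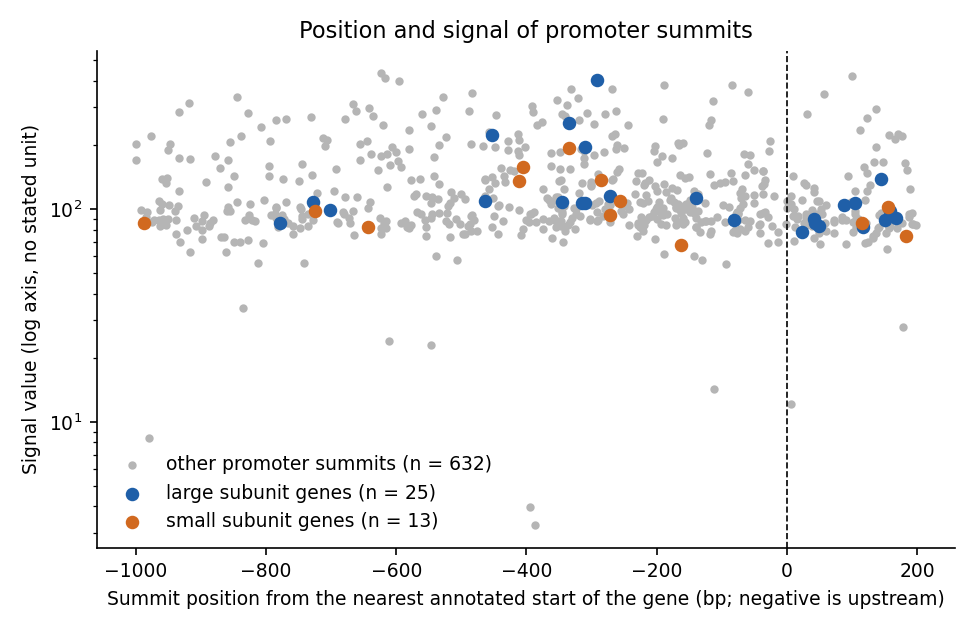
Signal value (log axis) of promoter summits in the list of both replicates against their distance from the nearest annotated start of the gene. Shown are 25 large subunit and 13 small subunit pairs, measured from the member, and 632 other promoter summits, measured from the nearest start of any gene. The strongest members lie 291 to 453 bp upstream, and the members after the start reach at most 138.

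A total of 7 genes held 2 summits in the window. At rpl-3 the second lay 117 bp after the nearest start, in coding sequence, with a signal of 82.1 beside the 404 upstream. At rps-24 an intronic summit 156 bp after the start had 102 beside 194. At rpl-41.2 the values were 115 upstream and 97.7 at 158 bp after the start. At rpl-7 the order was the reverse, with 108 at 346 bp upstream and 138 inside. At rps-12 the pair was 67.5 at 163 bp upstream and 74.3 at 183 bp inside, both within 500 bp of the snoRNA gene F54E7.10. The summits of a pair, with those of rpl-12 and rps-26 included, were 346 to 583 bp apart.

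Summits inside a gene but outside its promoter window were counted separately. They were found at 16 of the 81 genes (19.8%), against 3.3% of all protein-coding genes. Of the 16, 7 had no promoter summit (rpl-4, rpl-22, rla-1, rps-9, rps-13, rps-20 and rps-29). Of these 7, rpl-4, rps-13, rps-20 and rps-29 had it within 500 bp of a snoRNA or microRNA gene. The highest was at rpl-4, in coding sequence with a signal of 144, close to the snoRNA gene B0041.9. At rpl-3 a further summit lay in the untranslated region at the end of the gene, with 132. With both kinds together, 38 of 81 genes (46.9%) held a summit in the promoter or inside the gene, 24 of the large and 14 of the small subunit, against 6.71% of all genes.

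Neighbouring genes shared many of these summits. Of the 37, 23 (62.2%) also fell in the promoter window of another protein-coding gene, against 118 of the 632 other promoter summits (18.7%). The shares are not drawn alike. A summit in the windows of several genes had more chances to count as a member summit, and the 632 leave out all summits shared with members. The difference was not tested. At 13 members the summit lay upstream of the nearest start of each gene of a divergent pair. Not all of these lay between genes. The rpl-12 summit lay in coding sequence of rpl-12 itself, upstream of an inner start only. The rps-18 summit lay in an untranslated region of its partner sec-61.A, and the rpl-39 summit in coding sequence of rps-30. Examples are rpl-15 with K11H12.8, rps-19 with hsr-9, rps-23 with dpm-3, and rps-1 with ifet-1, which is itself a translation regulator. The neighbours rpl-39 and rps-30 were each occupied through a summit in the coding sequence of the other, with 98.9 and 97.6. The rpl-36 summit lay in the coding sequence of rps-14, 778 bp upstream of rpl-36 and 115 bp after the rps-14 start. The data do not assign such a summit to either gene. With each summit given only to the gene of the nearest start 26 of the 81 were occupied, and the share of all genes under that rule was not counted.

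Short noncoding genes lay near a minority of these summits. Of the 37 summits 7 (18.9%) lay within 500 bp of the start of a tRNA, snRNA, snoRNA, miRNA or rRNA gene, against 134 of 632 other promoter summits (21.2%). Without such summits 27 of the 81 genes were occupied, and the share of all genes under this filter was not counted. A snoRNA gene lay inside 13 of the 81 genes, of which 6 were occupied (rpl-6, rpl-7, rpl-7A, rpl-15, rps-12 and rps-23), and 25 of the 68 others were occupied.

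Most members without a thresholded summit had a candidate below it. The authors' ranked list of both replicates, which holds 84720 candidates, had 1 in the promoter of 45 of the 50 unoccupied members (90.0%), against 59.8% of the 19171 other unoccupied genes. Where there was 1, the best candidate had a median IDR of 0.134 at the members and 0.389 at the other genes. An IDR of 0.05 or less was found at 14 of the 50 (28.0%), against 3.96% of the others. At that looser threshold 45 of the 81 members were occupied (55.6%, against 7.64% of all genes), 27 large and 18 small subunit genes. The lowest values were 0.0132 at rla-1, 0.0152 at rps-8, 0.0161 at rps-25, 0.0183 at rps-9 and 0.0202 at rps-10. These 5 sit just outside the threshold, and rpl-21, with 0.00975, and rps-30, with 0.00875, sit just inside it.

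No stalk gene had a thresholded promoter summit in the list of both replicates. At rla-1 (WBGene00004409, chromosome I, 2069086 to 2069575, minus strand) the candidate of the list of both replicates had a signal of 96.3 and lay 571 bp upstream, while a thresholded summit of that list, with 89.5, lay inside the gene in coding sequence and outside the promoter window. Each replicate list held a thresholded summit close to the start, 30 bp inside the gene with a signal of 45.9 and an IDR of 0.00875 in replicate 1, and 18 bp inside with 15.0 and 0.00811 in replicate 2. At rla-0 the best candidate had an IDR of 0.0928, and at rla-2 no candidate lay in the window in any of these ranked lists. The conservative list held rla-1, rpl-24.1, rpl-30 and rps-10 in addition, and lacked rpl-21, rpl-36, rpl-6, rps-14 and rps-18. At rps-20 a summit 232 bp upstream was in the list of replicate 1 alone, with 88.1 and an IDR of 0.00100.

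**Figure D4:**
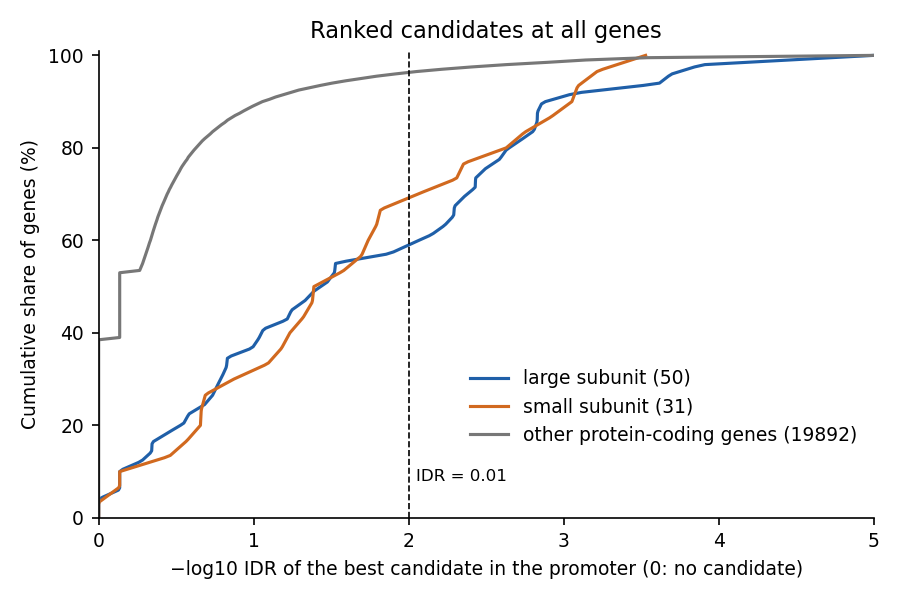
Cumulative share of genes by the −log10 IDR of the best candidate in their promoter in the ranked list of both replicates, for 50 large subunit, 31 small subunit and 19892 other protein-coding genes; genes with no candidate are at 0 and the dashed line marks an IDR of 0.01. A candidate was found at 45 of the 50 unoccupied members and at 59.8% of the other unoccupied genes.

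Occupied members were counted by chromosome beside all protein-coding genes. On chromosome I they were 9 of 25 (147 of all 2878 genes) and on II 2 of 10 (112 of 3449). On III they were 9 of 18 (138 of 2640), on IV 8 of 18 (112 of 3281) and on V 3 of 8 (141 of 4994). The 2 members on X, rpl-11.2 and rpl-25.1, had none (102 of 2731), and 2 genes are too few to compare. Their best candidates had an IDR of 0.160 and 0.732.

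The sequence under the upstream summits of these genes had about the same share of G and C as that under other promoter summits. The median over the 100 bp around a summit was 50.5% for the 24 upstream pairs, 48.0% for the 14 pairs at or after the start and 51.0% for the 632 other promoter summits. The 500 bp before the first start had a median of 34.0% at occupied members, 33.5% at the other members and 33.8% over all protein-coding genes. TAAT, the core of homeodomain sites, was in 5 of the 24 upstream windows (20.8%), against 154 of the 524 other promoter summits upstream of a start (29.4%), counted on both strands. It was in 5 of the 14 windows at or after the start (35.7%), against 193 of all 632 other promoter summits (30.5%). These differences were not tested.

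The other motifs searched were each under at most 2 of the 24 upstream summits. CGGCCA was in 2 of the 24 windows (8.33%) against 10.3% of the 524, ACGCAG in 2 (8.33%) against 10.7%, ACCACT in 1 (4.17%) against 13.2%, GCGCGA in 1 (4.17%) against 5.73%, GAGAGA in 2 (8.33%) against 16.4%, and GTTCGA, of the internal promoter of tRNA genes, in 2 (8.33%) against 13.5%. TATAAA was in none of the 24, and in 4.01% of the others. Matches are counts of letters on either strand, not tested.

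All 8 motifs were also counted over the 500 bp upstream of the gene, in the 31 occupied and the 50 other members and over all protein-coding genes. TAAT was in all members of both sets and in 99.3% of all genes. TATAAA was in 14 occupied (45.2%) and 30 other members, against 54.0% of all genes. GAGAGA was in 11 (35.5%) and 20, against 29.98%, and GTTCGA in 8 (25.8%) and 7, against 15.4%. ACGCAG was in 13 (41.9%) and 10, against 12.6%. ACCACT was in 5 (16.1%) and 5, against 14.4%, GCGCGA in 5 (16.1%) and 5, against 7.24%, and CGGCCA in 4 (12.9%) and 5, against 7.71%. ACGCAG had the widest gap between occupied members and all genes, a remark made after the values were seen.

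Of all 8-mers, TACGGTAA (TTACCGTA on the other strand) was under the most upstream summits of the members, at 5 of 24 (20.8%), namely rpl-3, rpl-20, rps-1, rps-18 and rps-23. It was under 4 of 632 other promoter summits (0.633%), which, unlike the 24, include the 108 at or after a start. It was chosen for this count after the values were seen, so the count is a description only. The 500 bp upstream of genes with no thresholded summit did not enter that choice, apart from windows that neighbours share. There it was found at 7 of the 50 unoccupied members (14.0%), rpl-11.2, rpl-18, rpl-24.1, rpl-34, rps-10, rps-13 and rps-17, and at 6 of the 31 occupied ones, against 403 of all 19973 protein-coding genes (2.02%). By subunit it was at 8 of 50 large (16.0%) and 5 of 31 small subunit genes (16.1%). The counts by subunit and at occupied members include the matches at rpl-3, rpl-20, rps-1 and rps-23, which led to the choice of the 8-mer. They are therefore not independent of that choice. Of the 721 other occupied genes 23 had the 8-mer (3.19%). These 23 can include divergent neighbours of members, such as dpm-3 beside rps-23, whose searched 500 bp holds the member's own site. Such neighbours were not counted apart. Counted by gene, the 13 matches at members, those that led to the choice included, lay 85 to 418 bp upstream, with a median of 279 bp. The matches of the divergent neighbours rps-10 and rpl-24.1, 369 and 240 bp upstream, are the same site. That site counts for both genes, and so for both subunits.

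Of the 5 genes with the match under a summit, rps-18 had its summit, 643 bp upstream, beyond the 500 bp searched. At the other 4 the distances of match and summit are given side by side. They had to be close, since these matches were found in the 100 bp around the summit, so their closeness is no result. The centre of the match was 283 bp upstream at rpl-3, where the summit was 291 bp upstream. The distances were 299 and 310 bp at rpl-20, 255 and 256 bp at rps-23, and 279 and 271 bp at rps-1. At rpl-1 and rpl-21 the match lay 218 and 294 bp upstream, while their summits lay after a start. Most members with a strong summit, rpl-15, rpl-35, rps-24 and rps-28 among those printed, lacked the full 8-mer in the window shown.

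Other genes of translation were counted by the same rule. Of 70 mitochondrial ribosomal protein genes (mrpl-, mrps-) 2 were occupied (2.86%), mrpl-32 with a signal of 112 and mrpl-15 with 76.6, close to the 3.77% of all genes. Of 44 translation factor genes 9 were occupied (20.5%, exact 95% interval 9.80 to 35.3). Among them ifet-1 was occupied through the summit it shares with rps-1, so that count is not separate from that of the members. The strongest of them were iff-2, of the initiation factor 5A family, with 148, and eef-1A.1 and eef-1A.2, which encode the elongation factor that brings tRNAs to the ribosome, with 140 and 132. The eef-1A.1 summit lay within 500 bp of a microRNA gene. None of the 9 had a summit in both replicate lists. Of 32 aminoacyl-tRNA synthetase genes ears-2 (188, in both replicate lists) and vars-1 (55.9) were occupied, and of 21 genes of ribosome assembly and the nucleolus pro-1 (145) and ruvb-1 (89.1). Of ubl-1, ubq-2 and rack-1, rack-1 was occupied, 141 bp after its start with 82.0 and within 500 bp of a snoRNA gene. The eef-1A pair are near copies of each other, so reads could have been placed at either.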

How the data were processed

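LIM-7 ChIP-seq peak lists of 2 biological replicates were read as deposited. Coordinates are ce11 per the file headers and README texts, and all peaks lay within the WBcel235 chromosomes. No aligner or peak caller is given in the sources used here. The authors deposited a signal value for each peak, without its scale, and a −log10 IDR for each candidate of the ranked lists. Every thresholded peak had an IDR at or under 0.01 in its own ranked list. The ranked list of both replicates held 1964 candidates at or under that IDR, against 1804 thresholded peaks, so IDR alone does not define the thresholded list. No unoccupied member had a candidate at or under 0.01 in the ranked list of both replicates, but 7 of the other unoccupied genes had 1. Another 32 columns, with values per input, were left out because no label ties them to a sample.

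Summits were assigned to 29314 distinct starts of Ensembl release 115 with Python 3.11.15, numpy 2.4.6, pandas 2.3.3 and SciPy 1.17.1, and the code was tested on simulated data. Sequences are from the RefSeq WBcel235 genome. The subunits were compared by Fisher's exact test (two-sided, threshold 0.05), and all else is description. Alternatives changed the list, IDR, signal minimum, window, overlap, nearby noncoding genes, shared summits and near copies. Described with values are the 12 members with the strongest summit, those in both replicate lists, the rla genes, the 5 unoccupied members of lowest IDR and up to 3 genes of each further list. Other names were chosen after their values were seen. The members and lists were chosen with earlier results of these data known.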

Additional observations from a re-analysis of the deposited data

How the results depend on the processing

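With the list of 1 replicate in place of that of both, 13 to 14 genes were occupied, against 31. The odds ratio of large against small subunit was 0.678 to 1.69, against 1.52, and the median distance upstream 287.5 to 315 bp, against 286 bp. The median signal was 87.4 in replicate 1, 76.7 in replicate 2 and 107 in the list of both. Signal values of different lists are not on one scale. Over all peaks the medians of these lists were 84.7, 85.6 and 104.6, so the lower replicate medians are not read as a change at the members. The odds ratio turned with replicate 1 alone (0.678) and with candidates of an IDR of 0.05 or less (0.848, Fisher's exact test, p = 0.819), and the cause was not tested. In no setting run did the subunits differ past the threshold. With only peaks at or above the median signal, 17 genes were occupied, with a median signal of 135, higher by construction, and a median distance of 310 bp. That distance was 110.5 bp in a window of 2000 bp upstream to 500 bp downstream, 310 bp without summits near short noncoding genes and 263.5 bp with the nearest gene only. The count of occupied genes under the windows, the conservative list, nearby noncoding genes, the nearest gene and the looser IDR ran from 22 to 45, and the count in both replicate lists was 5 to 7. For the windows, the signal minimum, nearby noncoding genes and the nearest gene, the share of all genes was not counted. Whether the members' higher share holds in those settings is therefore not shown. Depth is unknown, so an unoccupied gene is 1 with no promoter summit in the thresholded list, not 1 shown to lack LIM-7.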
